A study of Mus musculus with 30 samples.

Results

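The receptors and regulators described here are 10 genes that mark natural killer (NK) cells in mouse blood: Klrb1c, Klrk1, Ncr1, Klrc1, Klrd1, Klrg1, Cd244, Il18rap, Tbx21 and Eomes. Their values were read from the probes of the arrays that carry 1 of these gene names. The rule found 13 of 39429 probes, and 12 of the 13 stood far enough above background to be kept. All 10 genes therefore had a measured level among the 18724 genes or unnamed features that were tested. Members of the Klr family resemble each other in sequence, and how far probes of near copies such as Klrc1, Klrc2 and Klrc3 share signal was not tested.

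RNA was taken from whole blood of male C57BL/6J mice, drawn by cardiac puncture into PAXgene tubes, which fix RNA at the time of collection. The groups were p38DKI, p38DN and p38WT mice, either exposed to a 7 Gy x-ray dose and sampled at 24 h or left unirradiated, with 5 mice per genotype and treatment. The 6 groups therefore held 30 one-colour arrays. The series sets the response of blood transcripts to radiation against the state of p38, a stress-activated protein kinase. DKI and DN are names as the labels write them, which give neither the promoter nor the cells in which an altered p38 acts, nor an age, so no more is said of these genotypes here. Levels below are log2 signals from which the array's own 75th percentile was subtracted, and the arrays of a group carry the numbers 1 to 5. Groups are given as mean ± SD (n = 5). A gene passed the test at a limma adjusted p under 0.05 over all 18724 genes. The limma p-values weigh a difference between groups against the spread between these samples, which the 6 groups share in the fit.

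NK cells are lymphocytes that kill stressed, infected or transformed cells without rearranged antigen receptors. They weigh signals from activating receptors, such as NK1.1, NKG2D and NKp46, against signals from inhibitory receptors that read MHC class I molecules, and they respond to interleukin-15 and interleukin-18. The T-box factors T-bet and Eomes direct their development and maturation. Some T cells carry the same receptors, so none of these transcripts belongs to NK cells alone.

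The probes of 5 members lie on chromosome 6 (mm9, the build of the array annotation), in and near the NK gene complex, where many lectin-like receptors are encoded side by side. Those of Klrb1c lie at chr6:128729611-128729670 and chr6:128734770-128734829, that of Klrd1 at chr6:129548612-129548671 and that of Klrk1 at chr6:129561864-129561923. The 2 probes of Klrc1 lie at chr6:129616237-129616296 and chr6:129628315-129628374, and that of Klrg1 farther away at chr6:122220629-122220688. The other probes are at chr7:4296176-4296235 (Ncr1), chr1:173515388-173515447 (Cd244), chr1:40605729-40605788 (Il18rap), chr11:96959417-96959476 (Tbx21) and chr9:118394425-118394484 (Eomes). A second Eomes probe at chr9:118395189-118395248 was too dim to be kept. Exons and UTRs of mm9 were not analysed here. The probe of Cd244 carries the name Cd244a in the p38DKI and p38WT files and Cd244 in the p38DN files.

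Promoter sequences are shown for each member whose promoter held a searched motif. They are the 250 bases before the annotated start in RefSeq (GRCm38.p6), where 8 of the 10 members were matched. Capitals mark TGTGGT, the core bound by RUNX factors (ACCACA where it lies on the other strand), or, for Eomes, GAAA, any 2 bases and GAAA again, the core of the interferon-stimulated response element. The positions are chr6:128788642-128788891 (minus strand) for Klrb1c, chr6:129623865-129624114 (minus) for Klrk1, chr6:129678974-129679223 (minus) for Klrc1, chr7:4337465-4337714 (plus) for Ncr1 and chr9:118477939-118478188 (plus) for Eomes.
Klrb1c: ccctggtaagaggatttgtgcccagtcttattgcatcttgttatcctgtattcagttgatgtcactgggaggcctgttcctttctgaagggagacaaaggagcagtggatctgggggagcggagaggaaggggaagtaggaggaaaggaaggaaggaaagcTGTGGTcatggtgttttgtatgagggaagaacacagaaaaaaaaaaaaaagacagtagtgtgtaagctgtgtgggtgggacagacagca
Klrk1: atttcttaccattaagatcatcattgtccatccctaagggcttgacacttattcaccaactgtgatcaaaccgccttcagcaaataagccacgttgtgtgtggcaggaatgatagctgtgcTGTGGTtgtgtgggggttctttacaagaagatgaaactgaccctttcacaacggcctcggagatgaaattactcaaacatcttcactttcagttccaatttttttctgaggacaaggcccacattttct
Klrc1: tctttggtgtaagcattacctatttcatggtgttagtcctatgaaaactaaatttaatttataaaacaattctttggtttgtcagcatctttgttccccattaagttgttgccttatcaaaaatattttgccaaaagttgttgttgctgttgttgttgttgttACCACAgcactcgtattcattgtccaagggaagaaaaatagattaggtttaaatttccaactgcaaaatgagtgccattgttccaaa
Ncr1: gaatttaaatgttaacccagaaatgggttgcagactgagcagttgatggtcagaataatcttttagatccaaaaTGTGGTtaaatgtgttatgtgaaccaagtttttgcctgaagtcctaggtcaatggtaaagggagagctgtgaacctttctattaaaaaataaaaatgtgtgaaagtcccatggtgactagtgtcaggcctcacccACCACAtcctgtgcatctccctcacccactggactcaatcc
Eomes: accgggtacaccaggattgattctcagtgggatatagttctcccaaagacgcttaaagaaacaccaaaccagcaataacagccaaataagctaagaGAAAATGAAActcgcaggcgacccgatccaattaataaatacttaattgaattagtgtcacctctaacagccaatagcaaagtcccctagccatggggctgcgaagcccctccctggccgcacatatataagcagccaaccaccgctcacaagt

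The RUNX core, searched on both strands, was found in 4 of the 8 member promoters, once each in Klrb1c, Klrk1 and Klrc1 and at 2 places in Ncr1. It was found in 14% of all 32851 promoter windows of the same length. The interferon response core was found in 1 of the 8, that of Eomes, and in 2.98% of all windows. AGGTGT, the core bound by T-box factors, was in none of the 8 and in 11.8% of all windows, and TTCNNNGAA, a STAT motif, was in none of the 8 and in 7.02% of all windows. These are matches of letters in a window and not bound sites.

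Cdkn1a, a p53 target used to check the dose labels, was higher after irradiation by a log2 change of 4.14 in p38DKI, 4.35 in p38DN and 3.50 in p38WT blood (limma adjusted p = 8.35e-08, 5.21e-08 and 1.01e-06). The share of probes well above background ran from 39.24 to 63.22% per array. Some arrays carried transcripts typical of liver. The mean of 35 liver genes stood 9.28 (log2) above the median array on p38DKI irradiated array 2, and 6.94, 7.98 and 7.96 above it on p38DN unirradiated arrays 2, 4 and 5. On each of these 4 arrays all 35 liver genes were well above background. The same was reached on other arrays, in the p38DKI unirradiated and p38DN irradiated groups. The mean stood 3.64 above the median array on p38DKI unirradiated array 1, and 3.11 and 2.93 above it on p38DN irradiated arrays 2 and 4. The part of liver transcripts in the values of the NK genes was not tested. Results are given with and without the 4 highest arrays, and leaving these out does not remove every raised liver level. The p38DN arrays filled slides of their own, so for levels of p38DN against p38WT, slide and genotype cannot be told apart and no such test is given. Each p38DN slide held 1 irradiated and 1 unirradiated array.

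After irradiation the NK transcripts were higher in p38WT blood, where 6 of the 10 members rose and none fell. Klrb1c, Il18rap, Ncr1, Klrc1, Klrk1 and Tbx21 passed the test, by log2 changes between 1.10 and 1.99. In all 18724 genes, 15% were called higher and 12.1% lower. In 7 members the 5 irradiated arrays lay wholly above the 5 unirradiated arrays, which was so for 12.9% of all genes. In p38DKI blood 2 of the 10 rose, Klrb1c and Klrc1, against 12.1% of all genes called higher and 19.3% lower. None of the 10 p38DKI members had groups without overlap, where 7.23% of all genes lay wholly higher. In p38DN blood 2 of the 10 rose, Cd244 and Klrc1, against 17.6% of all genes called higher and 10.3% lower. With slide as a block, which pairs the p38DN arrays, 5 of the 10 rose in p38DN, against 16.7% of all genes. The median log2 change of the members was 0.50 in p38DKI, 0.89 in p38DN and 1.28 in p38WT blood, where the median of all genes was -0.25, 0.01 and -0.03. In whole blood, a change in the number of cells of a type and a change in RNA per cell cannot be told apart.

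The scale of an array sets part of each change. In p38DKI the median of all genes lay at -0.25 with the 75th percentile, at 0.17 with the array median and at 0.37 with no scaling, and in p38WT at -0.03, -0.04 and -0.46. Set against the median of all genes, the members' median was 0.75 higher in p38DKI, 0.88 in p38DN and 1.31 in p38WT, a difference that no scaling of whole arrays can move. With normexp background correction this difference was 0.61, 0.001 and 0.37 in p38DKI, p38DN and p38WT, and without the 4 liver-rich arrays it was 1.15, 0.23 and 1.31. With the percentile taken over probes detected on all arrays, 36.1% of the genes called in p38WT were higher, against 55.4% with the 75th percentile of all probes. That share was 29.4% against 38.5% in p38DKI, and 48.9% against 62.9% in p38DN.

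**Figure D1:**
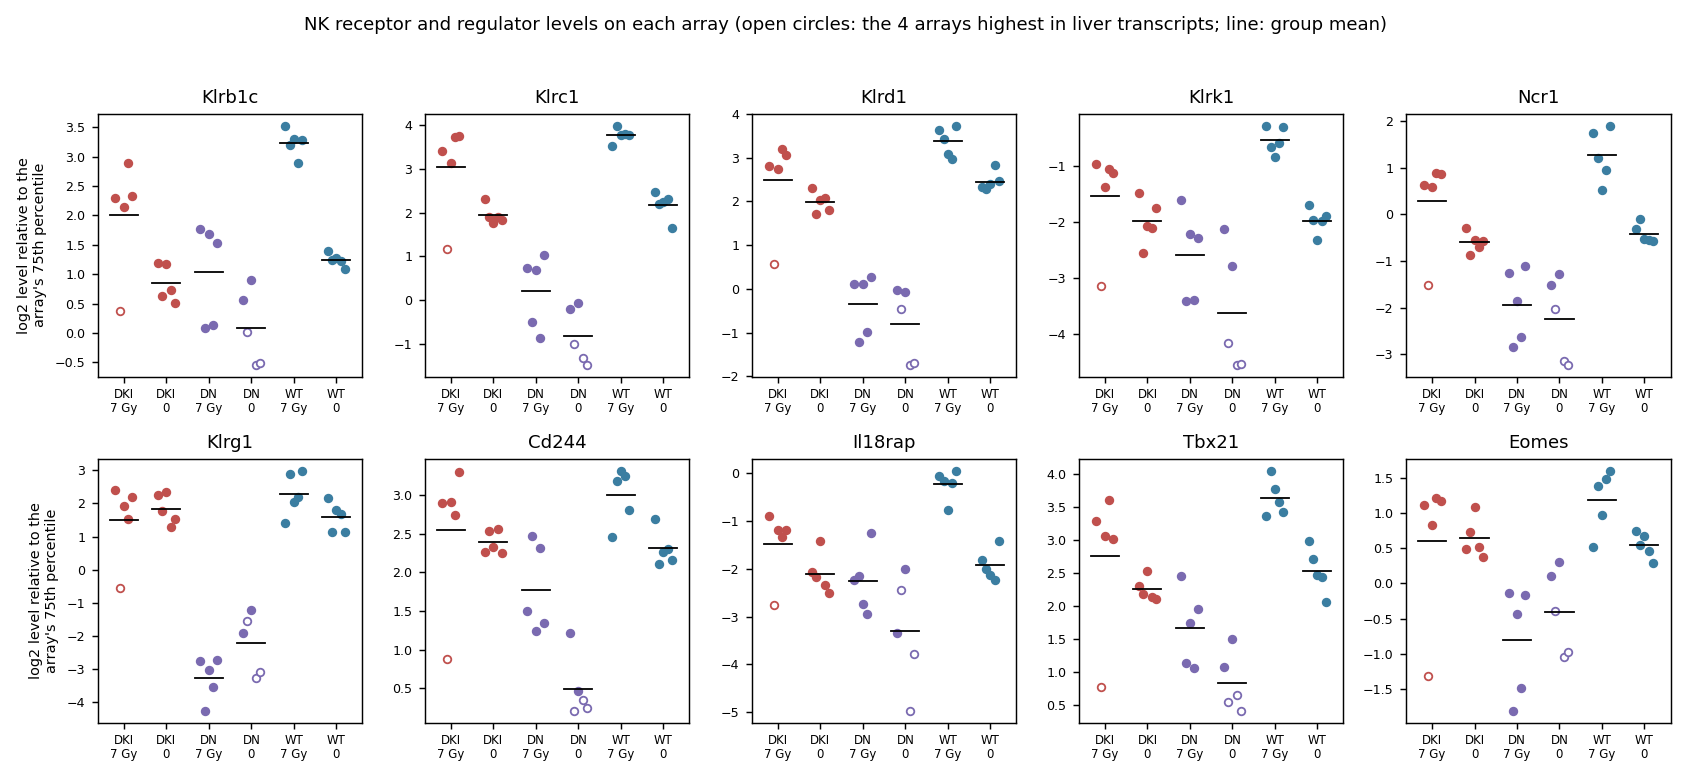
Level of each of the 10 genes on every array, as log2 relative to the 75th percentile of the array. Each point is 1 array, the short line is the group mean, and open circles are the 4 arrays highest in liver transcripts. In p38WT the 5 irradiated arrays of Klrb1c lie between 2.90 and 3.53, above the unirradiated arrays, which lie between 1.09 and 1.40. p38DKI irradiated array 2 is the lowest irradiated p38DKI array in each panel.

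Klrb1c encodes NK1.1 (NKR-P1C), an activating receptor used to identify NK cells in C57BL/6 mice. In p38DKI its levels were 2.29, 0.38, 2.15, 2.89 and 2.34 on irradiated arrays and 1.19, 0.64, 1.18, 0.72 and 0.51 on unirradiated arrays. In p38DN they were 1.76, 0.08, 1.68, 0.13 and 1.54 on irradiated arrays and 0.56, 0.01, 0.91, -0.54 and -0.51 on unirradiated arrays. In p38WT they were 3.53, 3.19, 3.29, 2.90 and 3.28 on irradiated arrays and 1.40, 1.25, 1.27, 1.23 and 1.09 on unirradiated arrays. The p38WT groups were far apart, the p38DKI groups overlapped only through irradiated array 2, and the p38DN groups overlapped because irradiated arrays 2 and 4 were as low as unirradiated ones. Klrb1c rose 2.24-fold in p38DKI (log2 1.16, SE 0.373, adjusted p = 0.0196) and 3.97-fold in p38WT (log2 1.99, SE 0.373, adjusted p = 0.00027), and in p38DN its log2 change was 0.95 (SE 0.373, adjusted p = 0.0564). The second probe of Klrb1c gave log2 changes of 0.91 in p38DKI (adjusted p = 0.0695), 1.26 in p38DN (adjusted p = 0.0138) and 1.68 in p38WT (adjusted p = 0.0017), with the second probe well above background on 3 irradiated and 2 unirradiated p38DN arrays. Both probes moved the same way.

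The order of the Klrb1c group means ran from irradiated p38WT (3.24 ± 0.228) through irradiated p38DKI (2.01 ± 0.955), unirradiated p38WT (1.25 ± 0.110), irradiated p38DN (1.04 ± 0.853) and unirradiated p38DKI (0.85 ± 0.316) to unirradiated p38DN (0.09 ± 0.642). From irradiated to unirradiated p38DKI, neighbours in this order lay within the larger of their SDs of each other, while irradiated p38WT and unirradiated p38DN stood farther than that from their neighbours. Irradiated p38WT held the highest mean for all 10 members, and irradiated p38DKI was the second highest for 8 of them. Unirradiated p38DN held the lowest mean for 8 members and irradiated p38DN for the other 2, Klrg1 and Eomes, on slides that held no other genotype.

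Ncr1 encodes NKp46, an activating receptor carried by NK cells and a few other innate lymphocytes. In p38DKI its levels were 0.63, -1.51, 0.58, 0.88 and 0.87 on irradiated arrays and -0.28, -0.88, -0.55, -0.70 and -0.58 on unirradiated arrays. In p38DN they were -1.27, -2.86, -1.87, -2.62 and -1.11 on irradiated arrays and -1.51, -2.03, -1.29, -3.14 and -3.23 on unirradiated arrays. In p38WT they were 1.75, 1.20, 0.53, 0.95 and 1.91 on irradiated arrays and -0.31, -0.09, -0.53, -0.55 and -0.58 on unirradiated arrays. Every irradiated p38WT array was above every unirradiated one, 4 of the 5 irradiated p38DKI arrays were above all unirradiated ones, and the p38DN groups were intermixed. Ncr1 rose 3.21-fold in p38WT (log2 1.68, SE 0.422, adjusted p = 0.00375). Its log2 change was 0.89 in p38DKI (95% confidence interval 0.02 to 1.75, adjusted p = 0.107) and 0.30 in p38DN (interval -0.57 to 1.16, adjusted p = 0.65).

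Klrk1 encodes NKG2D, the activating receptor for stress-induced ligands, and is also carried by CD8 T cells once these are activated. Its mean level was -1.53 ± 0.917 in irradiated and -1.99 ± 0.408 in unirradiated p38DKI blood, -2.59 ± 0.795 in irradiated and -3.64 ± 1.12 in unirradiated p38DN blood, and -0.53 ± 0.242 in irradiated and -1.98 ± 0.227 in unirradiated p38WT blood. It rose 2.73-fold in p38WT (log2 1.45, SE 0.430, adjusted p = 0.0129), where the groups did not overlap. The log2 change was 0.46 in p38DKI (adjusted p = 0.413) and 1.05 in p38DN (adjusted p = 0.0673), where its probe was well above background on 4 of the 5 irradiated and 1 of the 5 unirradiated arrays.

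Klrd1 and Klrc1 encode CD94 and NKG2A, which pair into an inhibitory receptor for the class I molecule Qa-1. Levels of Klrc1 were 3.41, 1.18, 3.12, 3.72 and 3.74 on irradiated and 2.32, 1.89, 1.76, 1.89 and 1.83 on unirradiated p38DKI arrays. They were 0.74, -0.49, 0.70, -0.87 and 1.02 on irradiated and -0.20, -1.01, -0.07, -1.32 and -1.47 on unirradiated p38DN arrays. They were 3.52, 3.99, 3.77, 3.79 and 3.77 on irradiated and 2.46, 2.20, 2.25, 2.31 and 1.65 on unirradiated p38WT arrays. Irradiated arrays were the higher ones in each genotype, without overlap in p38WT, with irradiated array 2 as the exception in p38DKI and irradiated arrays 2 and 4 as exceptions in p38DN. Klrc1 was the member called in all 3 genotypes, rising 2.14-fold in p38DKI (log2 1.10, SE 0.390, adjusted p = 0.0336), 2.05-fold in p38DN (log2 1.03, SE 0.390, adjusted p = 0.0486) and 3.02-fold in p38WT (log2 1.59, SE 0.390, adjusted p = 0.00309). The p38DN call was lost without any 1 of 6 p38DN arrays (adjusted p up to 0.138), and without the 4 liver-rich arrays the p38DN change of Klrc1 was 0.35 (1.28-fold, adjusted p = 0.479). The second Klrc1 probe changed by 1.10 in p38DKI (adjusted p = 0.0361) and 1.64 in p38WT (adjusted p = 0.00273) and was not well above background on any p38DN array.

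Klrd1 did not pass in any genotype. Its mean level was 2.48 ± 1.08 in irradiated and 1.99 ± 0.229 in unirradiated p38DKI blood, -0.34 ± 0.707 in irradiated and -0.80 ± 0.854 in unirradiated p38DN blood, and 3.37 ± 0.335 in irradiated and 2.46 ± 0.217 in unirradiated p38WT blood. The log2 changes were 0.50 (adjusted p = 0.341), 0.46 (adjusted p = 0.427) and 0.92 (adjusted p = 0.0936), the last without overlap between the p38WT groups.

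Klrg1 encodes an inhibitory receptor for cadherins that marks mature NK cells and effector T cells. In p38DKI its levels were 2.39, -0.55, 1.92, 1.53 and 2.20 on irradiated and 2.25, 1.77, 2.33, 1.28 and 1.53 on unirradiated arrays. In p38DN they were -2.75, -4.25, -3.03, -3.54 and -2.71 on irradiated and -1.92, -1.54, -1.21, -3.26 and -3.10 on unirradiated arrays. In p38WT they were 1.41, 2.89, 2.03, 2.18 and 2.96 on irradiated and 2.17, 1.12, 1.79, 1.68 and 1.15 on unirradiated arrays. The groups overlapped in every genotype. The log2 changes were -0.33 in p38DKI (SE 0.465, adjusted p = 0.59), -1.05 in p38DN (SE 0.465, adjusted p = 0.0921) and 0.71 in p38WT (SE 0.465, adjusted p = 0.278), so Klrg1 did not pass in any. In p38DN its probe was well above background on 2 irradiated and 4 unirradiated arrays. The p38DN value passed at -1.19 with the percentile over probes detected on all arrays (adjusted p = 0.0484) and at -1.20 in the deposited log2 values (adjusted p = 0.0317), and the p38DKI value was positive (0.09 and 0.29) with the array median or with no scaling.

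Cd244 encodes 2B4, a receptor of the SLAM family that NK cells share with monocytes and some T cells. Its levels in p38DKI were 2.90, 0.89, 2.90, 2.75 and 3.30 on irradiated and 2.26, 2.54, 2.32, 2.57 and 2.25 on unirradiated arrays. In p38DN they were 1.50, 2.47, 1.25, 2.31 and 1.35 on irradiated and 1.22, 0.21, 0.47, 0.35 and 0.24 on unirradiated arrays. In p38WT they were 2.46, 3.18, 3.31, 3.24 and 2.81 on irradiated and 2.69, 2.11, 2.27, 2.30 and 2.17 on unirradiated arrays. It was the single member whose p38DN groups did not overlap, where 12.4% of all genes lay wholly higher, and the 2 irradiated p38DN arrays highest in Cd244, arrays 2 and 4, were the 2 lowest in Ncr1. The mean level of 13 monocyte markers was 3.52, 4.28, 3.999, 4.56 and 3.64 on irradiated p38DN arrays and between 2.87 and 3.41 on unirradiated p38DN arrays, also without overlap and also highest on arrays 2 and 4. The part of monocytes in the Cd244 values was not tested. Cd244 rose 2.42-fold in p38DN (log2 1.28, SE 0.321, adjusted p = 0.00365), and its log2 change was 0.16 in p38DKI (adjusted p = 0.714) and 0.69 in p38WT (adjusted p = 0.116).

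Il18rap encodes the accessory chain of the interleukin-18 receptor. Its mean level was -1.48 ± 0.735 in irradiated and -2.10 ± 0.421 in unirradiated p38DKI blood, -2.27 ± 0.660 in irradiated and -3.31 ± 1.16 in unirradiated p38DN blood, and -0.23 ± 0.316 in irradiated and -1.92 ± 0.328 in unirradiated p38WT blood. It rose 3.23-fold in p38WT (log2 1.69, SE 0.410, adjusted p = 0.00285) without overlap. The log2 change was 0.62 in p38DKI (adjusted p = 0.238) and 1.04 in p38DN (adjusted p = 0.0583), where the probe was well above background on 4 irradiated arrays and 1 unirradiated array.

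Tbx21 encodes T-bet, which drives maturation of NK cells and the type 1 programme of T cells, and Eomes encodes the related factor needed for conventional NK cells. Tbx21 had a mean level of 2.76 ± 1.13 in irradiated and 2.26 ± 0.175 in unirradiated p38DKI blood, 1.67 ± 0.580 in irradiated and 0.84 ± 0.449 in unirradiated p38DN blood, and 3.64 ± 0.278 in irradiated and 2.54 ± 0.347 in unirradiated p38WT blood. It rose 2.15-fold in p38WT (log2 1.10, SE 0.359, adjusted p = 0.023). This call was lost without p38WT irradiated array 2 (adjusted p = 0.0548) or unirradiated array 5 (adjusted p = 0.0571). In p38DKI and p38DN the log2 changes of Tbx21 were 0.50 (adjusted p = 0.282) and 0.83 (adjusted p = 0.086).

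Levels of Eomes were 1.10, -1.32, 0.83, 1.22 and 1.17 on irradiated and 0.49, 0.72, 1.09, 0.52 and 0.37 on unirradiated p38DKI arrays. They were -0.13, -1.81, -0.44, -1.49 and -0.17 on irradiated and 0.10, -0.40, 0.31, -1.05 and -0.98 on unirradiated p38DN arrays. They were 0.52, 1.38, 0.97, 1.49 and 1.59 on irradiated and 0.75, 0.54, 0.68, 0.45 and 0.29 on unirradiated p38WT arrays. The groups overlapped in each genotype, in p38WT through irradiated array 1 alone. The log2 changes were -0.04 in p38DKI (adjusted p = 0.95), -0.41 in p38DN (adjusted p = 0.477) and 0.65 in p38WT (adjusted p = 0.237), so Eomes was not called in any genotype, and its p38DKI value was positive with the array median (0.38), with no scaling (0.59) and in the deposited log2 values (0.19).

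The p38DKI result depended on single arrays, and it changed most without irradiated array 2. Without p38DKI irradiated array 2, all 10 members had a positive change in p38DKI, with a median of 0.96 (all genes -0.19), and 5 rose, against 14.7% of all genes. These were Klrb1c (log2 1.57, adjusted p = 0.000644), Klrc1 (log2 1.56, adjusted p = 0.000624), Ncr1 (log2 1.34, adjusted p = 0.00749), Tbx21 (log2 0.99, adjusted p = 0.00437) and Klrd1 (log2 0.97, adjusted p = 0.0277). In 8 members the 4 remaining irradiated arrays lay above all 5 unirradiated arrays, which was so for 15% of all genes. Klrg1 (0.18) and Eomes (0.44) were the other 2. Without irradiated array 4 instead, none of the 10 passed in p38DKI, and without any 1 of 7 other p38DKI arrays 1 passed. The spread is shared by all groups in the fit, so leaving array 2 out also moved the other genotypes. Then 8 members rose in p38WT, Klrd1 (adjusted p = 0.0254) and Cd244 (adjusted p = 0.0225) being added, against 17.5% of all genes.

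In p38DN the shared spread had a like effect, and the liver-rich arrays had another. Without p38DKI irradiated array 2, 6 members rose in p38DN, against 20.1% of all genes, with Klrb1c (adjusted p = 0.0161), Klrk1 (adjusted p = 0.0307), Tbx21 (adjusted p = 0.0087) and Il18rap (adjusted p = 0.0334) added to Cd244 and Klrc1. Klrg1 then fell (log2 -1.05, adjusted p = 0.0322), where 14.6% of all genes were called lower. Without the 4 liver-rich arrays, p38DN kept 5 irradiated and 2 unirradiated arrays, 1 member rose and 2 fell, against 14% of all genes called higher and 15.1% called lower. Cd244 was the one that rose (log2 0.93, adjusted p = 0.0236), while Klrg1 (log2 -1.69, adjusted p = 0.00531) and Eomes (log2 -1.01, adjusted p = 0.0367) fell. Ncr1 (-0.55), Klrd1 (-0.29) and Klrk1 (-0.13) had negative changes, and the median over the members was 0.09, against -0.14 over all genes. The count of members called in p38DN, in either direction, ranged from 1 to 5 when 1 p38DN array was left out. It was 4 without irradiated array 2 or unirradiated array 1, and 5 without irradiated array 4 or unirradiated array 3. It was 1 without irradiated array 1, irradiated array 5 or unirradiated array 5. Without unirradiated array 4, 1 member rose and 1 fell. Of all genes, between 2757 and 3336 were called higher in these fits and between 1539 and 2064 lower.

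In the same 4-array exclusion 7 members rose in p38DKI, against 15.4% of all genes, and 8 in p38WT, against 18.5%. Within slides, the p38DN pairs of 1 irradiated and 1 unirradiated array gave a positive difference on all 5 slides for Cd244, Klrb1c, Klrc1, Klrk1 and Tbx21. They did so on 4 slides for Klrd1 and Il18rap, on 3 for Ncr1 and on 1 for Eomes and Klrg1. The liver-rich p38DN unirradiated arrays 2, 4 and 5 are part of these pairs and of the slide block. The probes of Klrk1 and of Il18rap were each well above background on 1 of the 5 unirradiated p38DN arrays. The slide block pairs the same-numbered p38DN arrays, and there Klrb1c (adjusted p = 0.048), Klrk1 (adjusted p = 0.0285) and Il18rap (adjusted p = 0.0492) were added to Cd244 and Klrc1. With a replicate block 4 rose in p38DN, against 17.4%, the same without Il18rap. The same slide block leaves the effects in p38DKI and p38WT to 1 slide each, and none of the 10 passed there in either. On the 1 slide that held both doses of p38WT (3 irradiated arrays and 1 unirradiated) all 10 members were higher after irradiation, with a median difference of 1.20. On the 1 slide that held both doses of p38DKI (1 irradiated array and 3 unirradiated) all 10 were higher, with a median of 1.02.

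**Figure D2:**
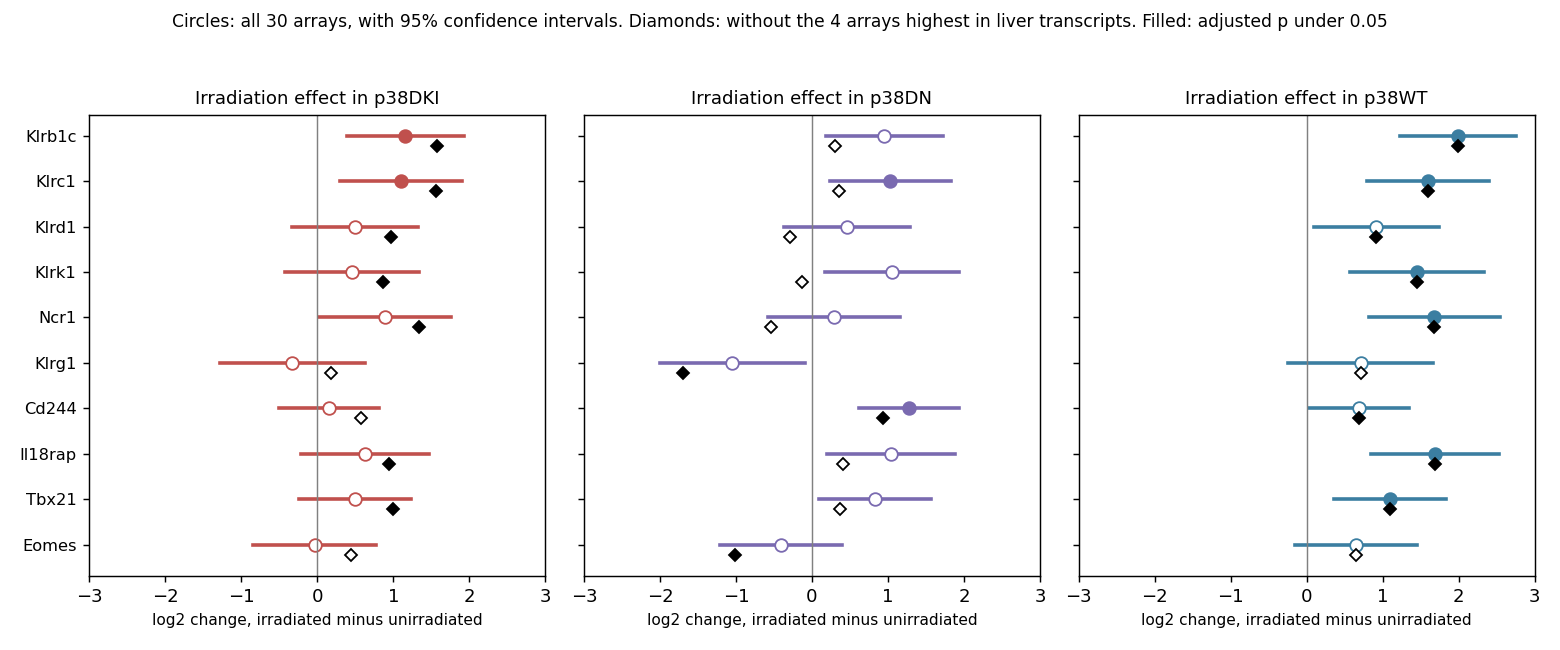
Log2 change of each gene, irradiated minus unirradiated, in each genotype. Circles use all 30 arrays and carry 95% confidence intervals, diamonds leave out the 4 arrays highest in liver transcripts, and filled symbols have an adjusted p under 0.05. All 10 circles are above 0 in p38WT, and in p38DN the diamonds of Klrg1 (-1.69) and Eomes (-1.01) are filled on the left.

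The next comparison asked whether the NK transcripts differed between p38DKI and p38WT blood. At neither dose did a slide hold arrays of both genotypes. Within a dose, slide and genotype therefore cannot be told apart in these levels. Before irradiation none of the 10 members passed (limma), none had an unadjusted p under 0.05 (7.34% of all genes did), and 0.101% of all genes were called. The changes ran from -0.47 to 0.25, with a median of -0.18 (all genes 0.08). After irradiation all 10 were lower in p38DKI by the estimate, with a median of -0.89 (all genes -0.10), and none passed, where 4.51% of all genes did. At an unadjusted p under 0.05 there were 6 of the 10, and 24.7% of all genes. The 5 p38DKI arrays lay wholly below the 5 p38WT arrays for Klrb1c (log2 -1.23, SE 0.373, adjusted p = 0.0542), Il18rap (log2 -1.25, SE 0.410, adjusted p = 0.0718) and Klrk1 (log2 -1.01, SE 0.430, adjusted p = 0.151), and 4.51% of all genes lay wholly lower. Without p38DKI irradiated array 2 these 3 still did not overlap (5.16% of all genes), at -0.82, -0.93 and -0.60, and the median over the members was -0.40. Klrb1c and Il18rap passed when the fit held these genotypes only (adjusted p = 0.0397 and 0.0303) or slide as a random block (adjusted p = 0.0271 and 0.0362). Klrb1c also passed without p38DKI irradiated array 4 (log2 -1.45, adjusted p = 0.03).

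The difference between the irradiation effects was tested by itself. For p38DKI minus p38WT none of the 10 passed (limma), none had an unadjusted p under 0.05 (14% of all genes did), and 0.00534% of all genes were called. The 10 estimates ran from -1.07 to -0.42 with a median of -0.74, against -0.22 over all genes. With no scaling 9 of the 10 were positive, with a median of 0.31 against 0.83 over all genes. The median was -0.27 without p38DKI irradiated array 2, against -0.11 over all genes, with 1 member positive. It was -0.23 (all genes -0.19) with normexp correction, -0.30 (all genes -0.14) with slide as a fixed block and -0.415 (all genes -0.03) in the deposited log2 values. For p38DN minus p38WT none passed either, 2 had an unadjusted p under 0.05 (19% of all genes did), and 1.64% of all genes were called. The median was -0.61, against 0.08 over all genes, and 9 of the 10 estimates were negative. It was -0.35 without p38DN unirradiated array 3, -0.39 without p38DN irradiated array 4, -0.96 with slide as a fixed block, -1.26 with the liver level as a covariate and -1.43 without the 4 liver-rich arrays. With no scaling it was -0.09, against 0.60 over all genes. Without p38DKI irradiated array 2, Klrg1 passed in this comparison (log2 -1.76, adjusted p = 0.0489, 2.58% of all genes lower). Without the 4 liver-rich arrays 4 members were called lower, against 2.62% of all genes.

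Ratios of 2 genes on the same array do not depend on how the array is scaled, so they were used to ask which NK transcripts changed unequally. Of 39 exact permutation tests (13 pairs of genes in 3 genotypes, 2-sided, adjusted over all 39), 20 passed: 9 of 13 in p38DKI, 7 of 13 in p38DN and 4 of 13 in p38WT. Every pair except Klrc1 to Klrd1 and Eomes to Tbx21 contains Ncr1, so these calls are not independent of each other. How often pairs of other genes would pass, or lie without overlap, was not tested. With 5 against 5 arrays the smallest p these tests can give is 0.00794. Relative to Ncr1, Eomes fell after irradiation, with log2 differences of -0.92 in p38DKI, -0.70 in p38DN and -1.03 in p38WT (exact permutation, adjusted p = 0.0206 in each). On these probes the log2 ratio of Eomes to Ncr1 was 0.47, 0.20, 0.25, 0.34 and 0.30 on irradiated and 0.77, 1.60, 1.63, 1.22 and 0.95 on unirradiated p38DKI arrays. It was 1.13, 1.05, 1.43, 1.13 and 0.95 on irradiated and 1.61, 1.63, 1.60, 2.09 and 2.25 on unirradiated p38DN arrays, and -1.23, 0.18, 0.44, 0.54 and -0.32 on irradiated and 1.06, 0.63, 1.21, 1.001 and 0.87 on unirradiated p38WT arrays. All 15 irradiated arrays lay below the unirradiated arrays of their genotype, and p38DKI irradiated array 2 lay with the other irradiated arrays. A ratio shows unequal change and does not say which of its genes changed.

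Klrg1 fell relative to Ncr1, with differences of -1.22 in p38DKI and -1.35 in p38DN (exact permutation, adjusted p = 0.0206 each), and the difference in p38WT was -0.97 (adjusted p = 0.0673). The p38DN value rests on a Klrg1 probe well above background on 2 of the 5 irradiated and 4 of the 5 unirradiated arrays. Klrc1 rose relative to its partner Klrd1 by 0.60 in p38DKI (exact permutation, adjusted p = 0.0206) and 0.57 in p38DN (adjusted p = 0.0464), with a difference of 0.68 in p38WT (adjusted p = 0.0774). Eomes fell relative to Tbx21, with differences of -0.53 in p38DKI and -1.23 in p38DN (exact permutation, adjusted p = 0.0206 each), and the difference in p38WT was -0.45 (adjusted p = 0.144). The differences in these 4 pairs had the same sign in the 3 genotypes. So did those of Klrb1c to Ncr1, and of Ncr1 to Cd3e and to Cd8a, which are described below. For Klrd1, Cd244, Klrk1 and Klrc1 to Ncr1 the sign turned between genotypes. Klrd1 fell relative to Ncr1 in p38DKI (-0.39, exact permutation, adjusted p = 0.0206) and p38WT (-0.76, adjusted p = 0.0344), with 0.16 in p38DN (adjusted p = 0.31). Cd244 fell relative to Ncr1 in p38DKI (-0.73, exact permutation, adjusted p = 0.0206), with 0.98 in p38DN (adjusted p = 0.263) and -0.99 in p38WT (adjusted p = 0.0867). Klrk1 fell relative to Ncr1 in p38DKI (-0.43, exact permutation, adjusted p = 0.0464), with 0.76 in p38DN (adjusted p = 0.059) and -0.23 in p38WT (adjusted p = 0.273). In p38DN Klrb1c (0.66) and Klrc1 (0.74) rose relative to Ncr1 (exact permutation, adjusted p = 0.0344 each), with 0.27 and 0.21 in p38DKI and 0.31 and -0.09 in p38WT, none of which passed. Whether differences of a pair differ between genotypes was not tested.

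Several of these calls turned on single arrays. The p38DN call of Klrc1 to Klrd1 was lost without any 1 of 7 arrays (irradiated 1, 2, 3 or 5, unirradiated 1, 2 or 3, adjusted p up to 0.0807), and the p38WT call of Eomes to Ncr1 without unirradiated array 4 (adjusted p = 0.0516). In p38WT, Klrg1 to Ncr1 passed without unirradiated array 2 (-1.17, adjusted p = 0.0364) and Klrc1 to Klrd1 without irradiated array 1 (0.80, adjusted p = 0.0464), all by exact permutation. The Klrd1 to Ncr1 call in p38WT was lost without any 1 of 5 arrays (adjusted p up to 0.059), that of Klrk1 to Ncr1 in p38DKI without any 1 of 8 (up to 0.0807), and those of Klrb1c and Klrc1 to Ncr1 in p38DN without any 1 of 7 and 6 (up to 0.0807 and 0.0774).

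Ncr1 was the member set against T cell transcripts. It rose relative to Cd3e, a chain of the T cell receptor complex, by 2.17 in p38DKI and 2.40 in p38WT (exact permutation, adjusted p = 0.0206 each, with 4 irradiated p38WT arrays), and the difference was 0.76 in p38DN (adjusted p = 0.138). Leaving out 1 unirradiated p38WT array makes 4 against 4 arrays, where the smallest exact p is 0.0286. The p38WT differences were then between 2.32 and 2.44 (adjusted p up to 0.0586). With outlier-marked spots kept, the p38WT difference was 1.76 and did not pass (exact permutation, adjusted p = 0.0774). The p38DN difference passed without unirradiated array 1 (1.04, adjusted p = 0.0464). Ncr1 rose relative to Cd8a, the coreceptor of CD8 T cells, by 4.65 in p38DKI and 4.52 in p38WT (exact permutation, adjusted p = 0.0206 each). Cd8a was well above background on 4 of the 5 irradiated arrays in each of these genotypes and on none in p38DN, where the ratio also passed but no size is given.

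The ratios depended on the background correction. With normexp correction, which shrinks changes of dim probes, 8 of 39 passed, 3 in p38DKI, 2 in p38DN and 3 in p38WT. All 3 in p38DKI rose, so none of the 6 falls called there passed. In p38DN 1 rose and 1 fell, and in p38WT 2 rose and 1 fell. Over all settings, the smallest fall of Eomes to Ncr1 was -0.41 in p38DKI, -0.16 in p38DN and -0.745 in p38WT. For Klrg1 to Ncr1 it was -0.47 in p38DKI and -0.19 in p38DN. Without the 4 liver-rich arrays 8 passed, 5 in p38DKI, none in p38DN and 3 in p38WT. In p38DN 5 against 2 arrays cannot give an exact p below 0.0476, so no p38DN pair could pass after adjustment, whatever its size. There the p38DN differences were -0.47 for Eomes to Ncr1, -1.15 for Klrg1 to Ncr1, 0.64 for Klrc1 to Klrd1 and -1.39 for Eomes to Tbx21.

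**Figure D3:**
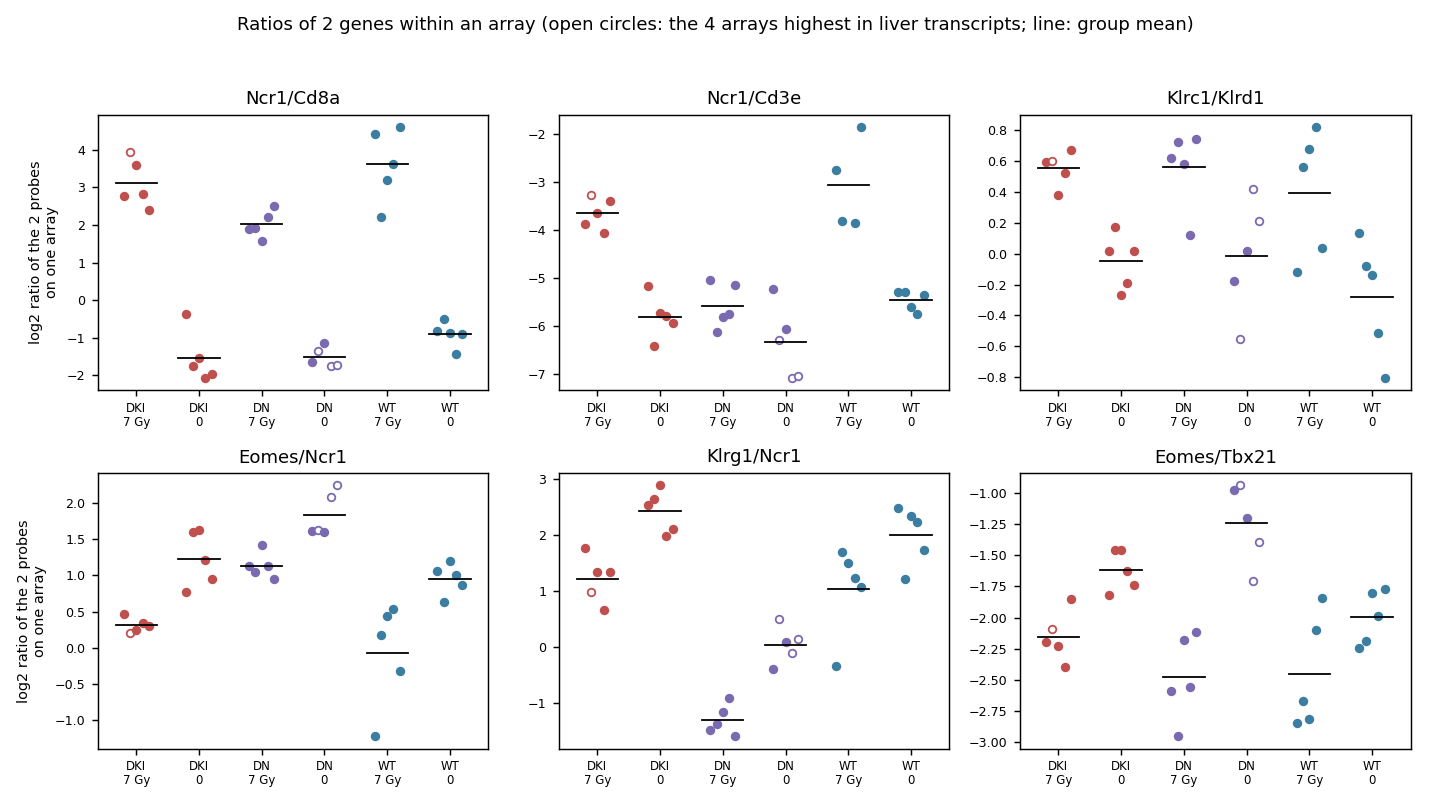
Log2 ratio of 2 genes on the same array for 6 pairs. Each point is 1 array, the short line is the group mean, and open circles are the 4 arrays highest in liver transcripts. For Eomes to Ncr1 every irradiated array lies below the unirradiated arrays of its genotype, and for Klrg1 to Ncr1 the same holds in p38DKI and p38DN. In p38DN the irradiated points of Ncr1 to Cd8a rest on a Cd8a signal that was not well above background.

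Other genes of the NK programme were read from lists written from general knowledge, with earlier results of these data known. The genes named from each list had the smallest p in these same comparisons, so they are not an independent test. Of 30 further NK receptors measured, 4 rose and 3 fell in p38DKI, 6 rose and 2 fell in p38DN, and 15 rose and 2 fell in p38WT, with median log2 changes of 0.62, 0.61 and 1.08. On all 30 arrays these and the following counts stand against 12.1, 17.6 and 15% of all genes called higher in p38DKI, p38DN and p38WT. The shares called lower were 19.3, 10.3 and 12.1%. The receptor counts in p38DKI (13.3% higher) and p38DN (20% higher) were near those shares. Cd226 (DNAM-1), an activating receptor, rose in each genotype, by 1.19 in p38DKI (adjusted p = 0.0136), 1.50 in p38DN (adjusted p = 0.00238) and 1.75 in p38WT (adjusted p = 0.000676). Its group means, from 4.66 to 8.03, lay above the highest group mean of any member, 3.77 for Klrc1 in irradiated p38WT. The part of other cell types, platelets among them, in the Cd226 values was not tested. Itga2 (CD49b), an integrin of mature NK cells that platelets also carry, rose by 1.86 in p38DN (adjusted p = 0.000122) and 1.04 in p38WT (adjusted p = 0.0191) and stood at 0.41 in p38DKI (adjusted p = 0.329). The receptors that fell included Cx3cr1, a chemokine receptor shared with monocytes, by 4.85-fold in p38DKI, 9.32-fold in p38DN and 4.84-fold in p38WT (adjusted p = 0.000675, 1.4e-05 and 0.000689). Slamf6, a SLAM receptor shared with B and T cells, fell 6.83-fold, 3.08-fold and 4.84-fold in the same order (adjusted p = 9.48e-07, 0.000611 and 1.57e-05), with its probe well above background on 4, 4 and 3 of the 5 irradiated arrays. Cd96, which binds the same ligand as DNAM-1 and is carried by T cells, fell in p38DKI (log2 -1.49, adjusted p = 0.00559), with values of -0.76 in p38DN (adjusted p = 0.154) and -0.62 in p38WT (adjusted p = 0.263).

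Of 17 cytotoxic effectors, 6 rose and 2 fell in p38DKI, 6 rose and none fell in p38DN, and 12 rose and none fell in p38WT. Gzmb, a granule protease that triggers death of the target cell, rose 3.10-fold in p38DKI, 2.83-fold in p38DN and 5.27-fold in p38WT (adjusted p = 0.00478, 0.00879 and 0.000144). Fasl, a death receptor ligand, rose 2.89-fold, 3.02-fold and 3.28-fold in that order (adjusted p = 0.00174, 0.00111 and 0.000625). Srgn, a granule proteoglycan of many blood cells, rose 2.03-fold, 2.78-fold and 2.81-fold (adjusted p = 0.0168, 0.000984 and 0.000993). Without p38DKI irradiated array 2, 15 of the further receptors were higher and 3 lower in p38DKI. Of the effectors 11 were higher and none lower. In that fit 14.7% of all genes were called higher and 15.5% lower in p38DKI. Without the 4 liver-rich arrays, 3 of the receptors were higher and 3 lower in p38DN. Of the effectors 3 were higher and none lower. There 14% of all genes were called higher and 15.1% lower in p38DN, so the receptor counts lay below both shares.

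Of 19 adaptors and proximal signaling genes, 2 rose and 3 fell in p38DKI, 9 rose and 1 fell in p38DN, and 6 rose and 1 fell in p38WT. Tyrobp (DAP12) and Fcgr3 (CD16), which serve myeloid cells as well as NK cells, rose in each genotype, Tyrobp by 1.08, 0.90 and 1.33 (adjusted p = 0.00719, 0.0239 and 0.00136 in p38DKI, p38DN and p38WT) and Fcgr3 by 1.30, 1.57 and 1.42 (adjusted p = 0.00463, 0.000866 and 0.00221). Hcst (DAP10), the adaptor of NKG2D, rose in p38WT (log2 1.14, adjusted p = 0.00204) and stood at -0.004 in p38DKI (adjusted p = 0.993) and 0.67 in p38DN (adjusted p = 0.0583). Cd247, the zeta chain used by Ncr1 and by the T cell receptor, fell in p38DKI (log2 -1.33, adjusted p = 0.00477) and p38DN (log2 -0.93, adjusted p = 0.0448), with -0.67 in p38WT (adjusted p = 0.156), and its probe was well above background on 1 of the 5 irradiated p38DN arrays. Without p38DKI irradiated array 2 the p38DKI counts were 6 higher and 1 lower, against 14.7% of all genes called higher and 15.5% lower.

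Of 15 further transcription factors of NK cells, 4 rose and 3 fell in p38DKI, 2 rose and 2 fell in p38DN, and 2 rose and 2 fell in p38WT, with medians of -0.30, 0.08 and -0.03. Id2, needed for NK and other innate lymphocytes, rose by 1.30, 1.11 and 1.32 in p38DKI, p38DN and p38WT (adjusted p = 0.000108, 0.000548 and 9.77e-05), and Zeb2, a factor of late maturation, by 0.85, 1.74 and 0.98 (adjusted p = 0.0146, 1.87e-05 and 0.00583). Foxo1, a factor of lymphocyte quiescence, fell 2.91-fold, 2.51-fold and 4.60-fold (adjusted p = 0.000196, 0.000768 and 2.12e-06), and Ets1 fell 4.09-fold, 2.44-fold and 3.30-fold (adjusted p = 0.000201, 0.0102 and 0.00103). Both are also expressed by B and T cells.

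Of 13 measured ligands of these receptors and genes of the interleukin-18 axis, 5 rose in p38DKI, 5 in p38DN and 3 in p38WT, and none fell. Il18bp, the secreted inhibitor of interleukin-18, rose 5.45-fold in p38DKI, 6.12-fold in p38DN and 4.89-fold in p38WT (adjusted p = 3.82e-08, 1.51e-08 and 1.07e-07), with its probe well above background on 3 of the 5 unirradiated p38DN arrays. Il15, a growth and survival factor of NK cells, rose 2.96-fold, 2.60-fold and 3.10-fold (adjusted p = 0.000382, 0.00119 and 0.000255). H2-T23, the Qa-1 ligand of CD94/NKG2A, rose by 0.40, 0.95 and 0.86 on the log2 scale (adjusted p = 0.0399, 3.34e-05 and 0.000238), with 4 irradiated p38WT arrays since 1 spot was marked as an outlier. In irradiated blood H2-T23 was lower in p38DKI than in p38WT (log2 -0.59, adjusted p = 0.0344), where slide and genotype cannot be told apart. Il18 rose by 0.99 in p38DKI (adjusted p = 0.00936) and 1.003 in p38DN (adjusted p = 0.00856) and stood at 0.52 in p38WT (adjusted p = 0.185).

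Marker lists of other blood cells moved at the same time. Of 20 T cell markers 16 fell in p38DKI, 6 in p38DN and 9 in p38WT, and none rose. Their summed level, in units of the array's 75th percentile, lay between 35.1 and 172.1 on irradiated and between 239.9 and 323 on unirradiated p38DKI arrays, between 44.3 and 94.1 on irradiated and between 85.0 and 164.1 on unirradiated p38DN arrays, and between 84.0 and 202.4 on irradiated and between 226.6 and 312.3 on unirradiated p38WT arrays. All 15 B cell markers fell in each genotype. All 15 were well above background on each unirradiated array. On irradiated arrays between 10 and 14 of the 15 were so in p38DKI, between 9 and 14 in p38DN and between 7 and 12 in p38WT. Of 14 platelet markers 6 rose in p38DKI, 14 in p38DN and 13 in p38WT, and of 14 neutrophil markers 10 rose and 1 fell in p38DKI, 1 rose and none fell in p38DN, and 12 rose and none fell in p38WT. Of 13 monocyte markers 2 rose and 2 fell in p38DKI, 5 rose and 1 fell in p38DN, and 2 rose and 2 fell in p38WT. Their summed level lay between 489.4 and 1284 on irradiated and between 484.2 and 895.4 on unirradiated p38DKI arrays, between 597.3 and 1368 on irradiated and between 267.8 and 512 on unirradiated p38DN arrays, and between 543.5 and 1015 on irradiated and between 430 and 750.8 on unirradiated p38WT arrays. Of 14 erythroid markers none rose and 10 fell in p38DKI, none rose and 10 fell in p38DN, and 1 rose and 7 fell in p38WT. Between 9 and 13 of the 13 monocyte markers and between 10 and 14 of the 14 erythroid markers were well above background on each array. Between 12 and 20 of the 20 T cell markers and 13 or 14 of the 14 platelet and of the 14 neutrophil markers were well above background on each array. The part of these cell types in the values of the NK genes was not tested.

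**Figure D4:**
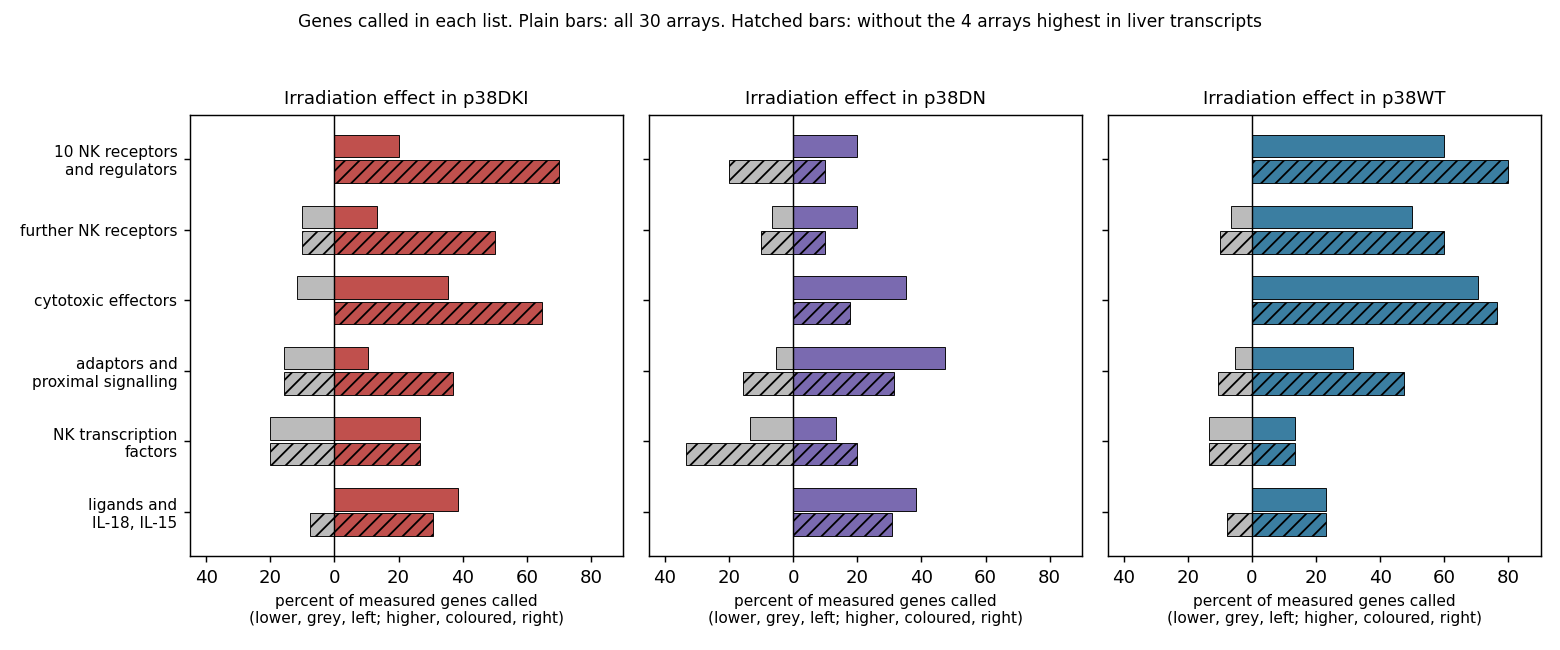
Percent of the measured genes of each list that were called higher (coloured, right) or lower (grey, left) after irradiation in each genotype. Plain bars use all 30 arrays and hatched bars leave out the 4 arrays highest in liver transcripts. The lists of NK receptors and cytotoxic effectors reach farthest to the higher side in p38WT, and in p38DN their hatched bars on that side are shorter than the plain ones.

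Across the 30 arrays, after removal of the group means, the members varied together. The 45 pairs had a median Pearson correlation of 0.77, and 0.65 without p38DKI irradiated array 2, with single pairs between -0.41 and 0.91 on those 29 arrays. All arrays share the scaling and the liver-rich libraries, and the median correlation of all genes with Ncr1 was 0.24 (0.09 without that array). The genes nearest to Ncr1 were 4 Klra (Ly49) genes, Klra1 (0.95), Klra4 (0.95), Klra16 (0.95) and Klra12 (0.94), followed by Klrd1 (0.94). Ly49 genes are near copies of each other, so their probes may report shared signal. Nearest to Klrb1c were Ctsw, a protease of cytotoxic lymphocytes (0.96), Gzmb (0.95), Coro2a (0.94), an unnamed probe (0.94) and Osbpl3 (0.93). Cd244 stood apart, with a correlation to Ncr1 of 0.26 over 30 arrays and -0.32 without p38DKI irradiated array 2, where Klrd1 had 0.905 and Klrk1 0.835.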

How the data were processed

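Blood RNA of 30 mice in 6 groups was measured on Agilent one-colour arrays. The authors' scanner files, read with Agilent Feature Extraction 12.0.2 per the file headers, give a processed signal as intensity for 43020 spots that are not controls (39429 probes). The authors also deposited log2 values of 18417 probes, among them 10 member probes, which were used as an alternative. Over 18140 single-spot probes these differed from the log2 processed signal by a constant on each array (-1.161 to 0.642), with 0 probes off by over 0.01. Precision is limited by how many arrays there are.

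Intensity was taken to log2, spots marked as outliers were left out, repeated spots were averaged, and the 75th percentile of each array (intensities of 43.3 to 230.4) was subtracted. A probe was kept if it passed the scanner's background flag on 4 or more of the 5 arrays in some group and was measured on 20 or more arrays in all (23614 probes). Each gene was read from its brightest kept probe (18724 genes). Probes were named through RefSeq accession (29056), symbol (3150) or synonym (116), and 7107 kept the name in the file. Probes of 1 gene were also tested one by one. Groups were fitted together with limma 3.58.1 in R 4.3.3 (24 residual degrees of freedom), with Benjamini-Hochberg adjustment over all genes, and the fit was tested on simulated data.

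Ratios were tested by exact permutation. Named genes were all members, the 3 genes with the smallest p in each other NK list and irradiation effect, the 5 genes most correlated with Ncr1 and with Klrb1c, Cd3e and Cd8a as partners in ratios, and Cdkn1a as a check of the dose. The members and lists were chosen with earlier results of these data known. Alternatives changed the scaling, background correction, probe filter, probe choice, fit and blocks, used the deposited table, or left out arrays. Those chosen after seeing the data were the list counts and the correlations without p38DKI irradiated array 2 and the ratios without the 4 arrays highest in liver transcripts. Figures were drawn with matplotlib 3.10.9.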

Additional observations from a re-analysis of the deposited data

Results flagged for a closer look

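Within the groups of 5 arrays, 10 of 60 member levels had a lowest or highest array that stood apart by Dixon's test (gap over range above 0.71), where chance gives about 1 in 20. Of these, 8 lay on p38DKI irradiated array 2, the array with the highest level of liver transcripts (9.28 above the median array, log2), and each was the lowest of its group. The levels there were -3.15 for Klrk1, -1.51 for Ncr1, 1.18 for Klrc1, 0.58 for Klrd1, 0.89 for Cd244, -2.76 for Il18rap, 0.78 for Tbx21 and -1.32 for Eomes. The same array was also lowest for Klrb1c and Klrg1, whose gaps did not pass. The members are thus not independent counts of this pattern, since they share 1 array. The part of the liver transcripts in it was not tested. The other levels that stood apart were 2.32 for Klrc1 on p38DKI unirradiated array 1 and 1.22 for Cd244 on p38DN unirradiated array 1, each the highest of its group.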

How the results depend on the processing

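The 6 members that rose in p38WT kept their direction in each of 24 other settings. Counts of called members under other settings were as follows, where the reported counts are 2 in p38DKI, 2 in p38DN and 6 in p38WT. With normexp background correction the counts were 0, 0 and 3, where 671, 377 and 420 of all genes were called higher. With slide as a fixed block they were 0, 5 and 0, where 426, 3119 and 59 of all genes were called higher. That block leaves the p38WT and p38DKI effects to 1 slide each. In p38DKI the count was 4 with the array median, 7 with no scaling and 1 with no filter on dim probes. It was 0 in a fit on the compared genotypes only and 6 with the liver level as a covariate. Without the 4 arrays highest in liver transcripts it was 7. Over all genes, the p38DKI calls higher were 2261 as reported, 3791 with the array median and 3819 with no scaling. They were 1959 with no filter (29654 genes tested), 1658 in the fit, 2514 with the liver covariate and 2888 without the 4 arrays. In p38DN the count was 4 with the array median and 5 with no scaling. It was 1 with no filter, 1 in a fit on the compared genotypes only and 1 with slide as a random block (correlation within slides -0.051). In the deposited log2 values it was 4, of which 3 rose and 1 fell. With the percentile over probes detected on all arrays 1 rose and 1 fell, and with the liver covariate 1 rose and 2 fell. Over all genes, the p38DN calls higher were 3291 as reported, 2928 with the array median and 2387 with no scaling. They were 2861 with no filter, 2895 in the fit, 3189 with the random block and 2301 in the deposited values. For p38DKI minus p38WT in irradiated blood (reported 0) the count was 2 in a fit on these genotypes and 2 with slide as a random block. These members were lower in p38DKI. Over all genes 469 and 1328 were called lower in these settings, against 629 as reported. For the p38DN minus p38WT difference of effects (reported 0) the count was 4 with the liver covariate and 4 without the 4 arrays, all called lower. Over all genes 748 and 490 were called lower in these settings, against 120 as reported. Of the 39 ratios (reported 20), 8 passed with normexp correction and 8 without the 4 arrays. Leaving out 1 array at a time gave 0 to 5 in p38DKI, 1 to 5 in p38DN, 5 to 6 in p38WT, 0 to 1 for p38DKI minus p38WT in irradiated blood, 0 to 0 for the other comparisons and 15 to 21 ratios. With a replicate block the counts were 2 in p38DKI, 4 in p38DN, 6 in p38WT and 1 for p38DKI minus p38WT in irradiated blood, but same-numbered arrays of both doses correlated over 0.1 in only 2, 3 and 2 of 5 pairs in p38DKI, p38DN and p38WT, so the numbers were not taken as pairs in p38DKI and p38WT; in p38DN they also name the slide. The calls over all genes in p38WT (2814 higher, 2262 lower) were 420 and 914 with normexp correction.

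Some signs turned, and the cause was not tested. In p38DKI Klrg1 (reported -0.33) was 0.09 with the array median, 0.29 with no scaling, 0.68 with slide as a fixed block, 0.11 with the liver covariate and 0.18 without the 4 arrays or without irradiated array 2. Eomes (reported -0.04) was 0.38, 0.59, 0.45, 0.40 and 0.44 in the same settings, 0.19 in the deposited log2 values and -0.19 to 0.44 when 1 array was left out (0.08 without unirradiated array 3). With normexp correction Klrk1 was -0.12 and Il18rap -0.13 in p38DKI, and Cd244 was -0.029 without irradiated array 5 (up to 0.58 without irradiated array 2). In p38DN normexp correction gave -0.087 for Klrd1, -0.027 for Klrk1, -0.097 for Ncr1 and -0.059 for Il18rap, the liver covariate -0.13 for Klrd1 and -0.27 for Ncr1, and leaving out the 4 arrays -0.29 for Klrd1, -0.13 for Klrk1 and -0.55 for Ncr1. For p38DKI minus p38WT in irradiated blood Cd244 was 0.15 and Eomes 0.008 with no scaling, Cd244 0.075 with normexp correction, Klrg1 0.12 with slide as a fixed block and Eomes 0.12 with the liver covariate. H2-T23 in p38WT was -0.10, Klrd1 to Ncr1 in p38DKI 0.20 and Ncr1 to Cd3e in p38DN -0.055 with normexp correction. Dim probes limit the p38DN values of Klrk1, Klrg1 and Il18rap.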
